A study of Mus musculus with 16 samples.

Results

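Matrix metalloproteinases (Mmp genes), ADAMTS proteases (Adamts), the ADAMTS-like proteins (Adamtsl) and the tissue inhibitors of metalloproteinases (Timp) were described in the heart ventricles of mice that lack Rbpms in cardiomyocytes. Members were taken by gene symbol, as those 4 stems followed by digits and an optional final letter, and 51 of 54108 named rows of the count table fitted. Of these, 37 reached a level of 0.5 CPM (a gene's counts relative to the library's total, here scaled between libraries by the TMM method) in at least 4 libraries and are described one by one, and 14 did not. The samples are whole ventricles of 8-week-old mice, 4 controls (Rbpms fl/fl) and 4 cardiac knockouts (Myh6-Cre, Rbpms fl/fl, called cKO), each group with 3 males and 1 female, which is replicate 3 in both. Both groups carry the floxed Rbpms alleles and only cKO mice carry Cre, whose Myh6 promoter is active in cardiomyocytes, so effects of Cre itself and of the deletion cannot be told apart. Newborn ventricles of the series were not analysed here.

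Metalloproteinases are zinc enzymes that cut proteins of the extracellular matrix outside the cell. Most are made as inactive precursors, and the 4 TIMPs bind and block the active enzymes. ADAMTS proteases cut large proteoglycans and trim procollagens before fibrils assemble, while ADAMTS-like proteins share their ancillary domains but lack the protease domain and bind fibrillin microfibrils. In the heart these genes are known from fibroblasts, endothelial cells and, for some, cardiomyocytes, and from remodelling of the matrix after injury.

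Promoter windows were searched for the letters of an AP-1 site and of a TATA box, which together are classically tied to inducible metalloproteinase genes. RefSeq windows of GRCm38.p6, from 250 bases before to 50 after each annotated start, were matched for 23 of the 37 members (24 windows). The letters TGAGTCA or TGACTCA, the same AP-1 site read on either strand, stood in 2 of these windows (8.33%) and in 5.20% of all 32851 windows. TATAAA on either strand stood in 4 of them (16.7%) and in 13.6% of all, and the AP-1 and TATA letters do not overlap in the member windows. The 60 bases before the start are shown for these 4 genes, with the motif letters in capitals.
Mmp13 (chr9:7272454-7272513, plus strand): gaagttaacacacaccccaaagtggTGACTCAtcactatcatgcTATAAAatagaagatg
Mmp3 (chr9:7445762-7445821, plus strand): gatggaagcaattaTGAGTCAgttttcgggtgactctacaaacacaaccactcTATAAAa
Adamtsl2 (chr2:27079319-27079378, plus strand): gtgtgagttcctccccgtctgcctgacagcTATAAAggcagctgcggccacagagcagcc
Adamts1 (chr16:85803114-85803173, minus strand): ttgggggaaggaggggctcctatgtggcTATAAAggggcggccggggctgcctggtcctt
Mmp13 and Mmp3 hold both motifs, and neither of them passed the test between genotypes described below. Their TATAAA letters begin 16 and 7 bases before the annotated start, against 30 in Adamtsl2 and 32 in Adamts1. Adamtsl2 and Adamts1 hold TATAAA without the AP-1 letters, and one of them rose while the other differed little between genotypes.

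Libraries held 20190334 to 24540433 counts. Rbpms measured 101.6 to 193.2 CPM in controls and 26.9 to 38.8 CPM in cKO, without overlap between the groups. Ventricular cardiomyocyte markers summed to 28550 CPM or more in each library. The 3 atrial markers (Sln, Myl4, Myl7) varied widely within each genotype, with sums of 44.6 to 200.9 CPM in controls and 62.5 to 246.2 CPM in cKO. The labels do not say whether libraries are separate animals, so a p-value here reflects the spread among libraries, which may be technical. At an adjusted p under 0.05 in edgeR's quasi-likelihood test, which was fitted over all genes and is used throughout, 1548 of 16051 tested genes (9.64%) were higher in cKO and 1547 (9.64%) were lower. With scaling by total counts alone, 66.1% of the called genes were higher (1992 higher and 1021 lower).

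Of the 37 members, 14 rose in cKO (37.8%, beside 9.64% of all genes) and 4 fell (10.8%, beside 9.64%), while 19 did not pass. The median log2 fold change (cKO over control) was 0.38 over the members and 0.01 over all tested genes. Adamts4 reached the minimum level in cKO libraries alone, so its inclusion depended on its rise, and without it 13 of 36 members rose, with a median of 0.37. The groups did not overlap for 16 members with all cKO libraries higher and 4 with all lower, against 11.8% of all genes in each direction. Among MMPs 4 of 12 rose and 1 fell, among ADAMTS proteases 6 of 16 rose and 2 fell, among ADAMTS-like genes 2 of 5 rose, and of the 4 TIMPs 2 rose and 1 fell.

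**Figure D1:**
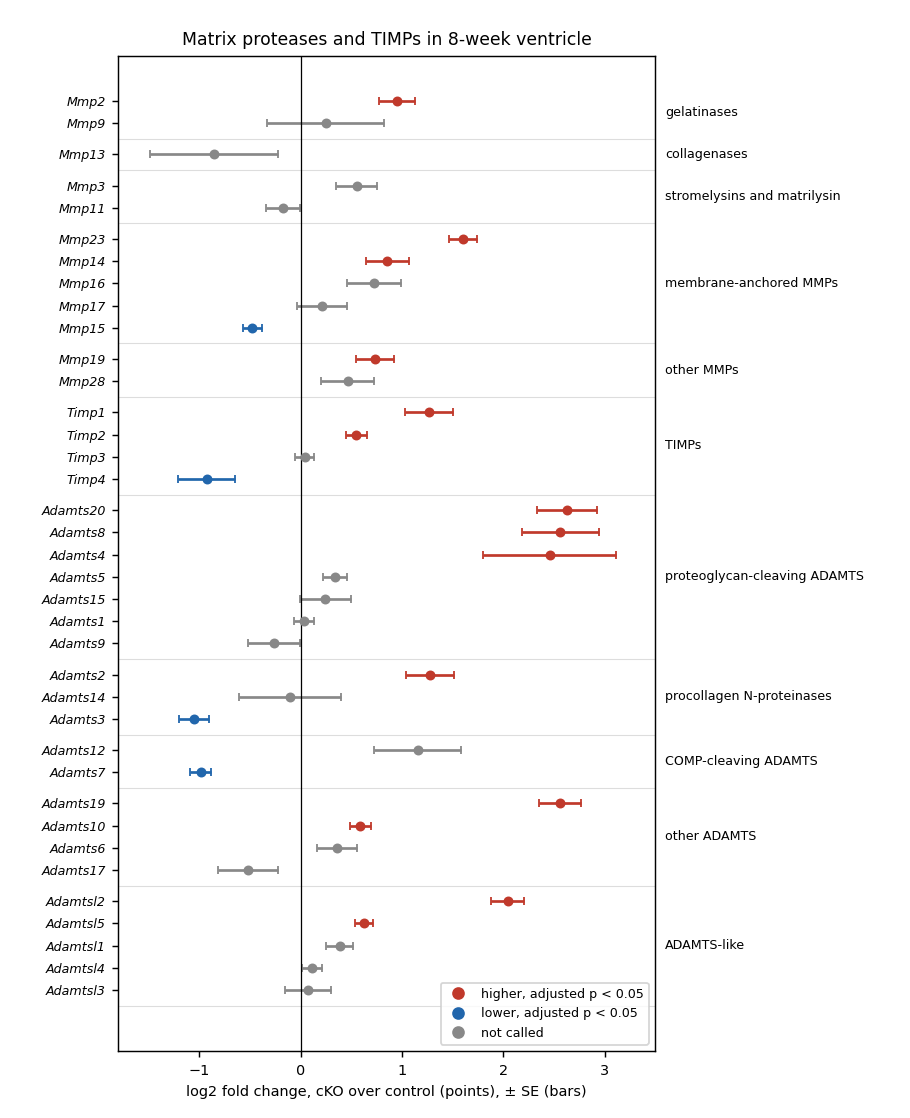
Log2 fold change of cKO over control (x axis) for the 37 members, grouped by role, with bars for the standard error and colour for the call at an adjusted p under 0.05. The 5 points furthest to the right are Adamts20, Adamts8, Adamts19, Adamts4 and Adamtsl2, and the 4 members that fell are Adamts3, Adamts7, Timp4 and Mmp15.

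Markers of fibroblasts moved with the family. The counts of called markers below stand beside 9.64% of all tested genes that rose and 9.64% that fell. Of 10 fibroblast markers 9 rose, and their summed level was 1376 to 1850 CPM in controls and 3070 to 3978 CPM in cKO. No fibroblast marker was at 0, and Thy1 was the one that did not pass (log2 fold change 0.02). Of 7 activated fibroblast markers 5 rose, with sums of 87.5 to 123.2 CPM in controls and 313 to 556.6 CPM in cKO. The endothelial sum was 1381 to 1647 CPM in controls and 1220 to 1428 CPM in cKO (0 of 9 rose and 1 fell), and the ventricular cardiomyocyte sum was 34210 to 44740 and 28550 to 34450 CPM (0 of 7 rose and 2 fell). Of 8 macrophage markers 3 rose (193.9 to 287 CPM and 309.4 to 355.6 CPM). The 6 neutrophil markers summed to 1.20 to 3.72 CPM in controls and 1.66 to 3.31 CPM in cKO. Among them Ly6g had 0 counts in all 8 libraries, while Csf3r was at 0.5 CPM or more in all 8. Csf3r was the only neutrophil marker tested and did not pass (log2 fold change 0.62, adjusted p = 0.184). Of 4 tendon and valve markers 3 rose (Fmod, Scx and Tnmd), with sums of 12.0 to 19.6 CPM in controls and up to 46.4 CPM in cKO, without overlap, and Chad did not pass. Tnmd was near 0 in controls (0.049 CPM) and at 2.37 CPM in cKO. Of 9 smooth muscle and pericyte markers 1 rose and 1 fell, and none of the tested epicardial, adipocyte, lymphocyte and atrial markers passed. In whole tissue, more cells of a type and more RNA per cell cannot be told apart, and the part of these cell types in the members' differences was not tested.

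The secreted gelatinase Mmp2, which cuts denatured collagen and basement membrane collagen, had the highest level per exon length of the MMPs in cKO ventricles. It is encoded on chromosome 8 (92827291 to 92853420, GRCm38). Control libraries 1 to 4 measured 93.3, 85.4, 57.8 and 126.6 CPM, and cKO libraries 183.2, 166.7, 179.7 and 171.2 CPM. Every cKO library lay above every control, and the controls were the more scattered group. The rise was 1.93-fold (90.8 ± 28.3 to 175.2 ± 7.58 CPM, mean ± SD, n = 4; log2 fold change 0.95, SE 0.18, adjusted p = 0.00326 by edgeR). The other gelatinase, Mmp9, which neutrophils and macrophages also make, was near the lower limit of measurement, with 1.59, 0.931, 0.758 and 0.105 CPM in controls and 0.704, 1.89, 0.950 and 0.516 CPM in cKO. Its groups overlapped widely (log2 fold change 0.25, SE 0.58, adjusted p = 0.818).

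Mmp14, the membrane-type enzyme that activates the Mmp2 precursor at the cell surface, also rose. Controls measured 24.0, 19.5, 9.68 and 17.7 CPM and cKO libraries 36.7, 29.3, 30.5 and 31.6 CPM. No library overlapped, and the lowest value belonged to the female control. The rise was 1.81-fold (log2 fold change 0.86, SE 0.21, adjusted p = 0.0136). Mmp15, a close relative of Mmp14, went the other way. In controls its mean level per exon length was the highest of the MMPs, but it did not differ from Mmp2 beyond their spread. Controls of Mmp15 measured 187.5, 168.4, 147.3 and 188.9 CPM and its cKO libraries 118.1, 119.0, 123.9 and 135.9 CPM. All cKO libraries were lower, by 1.39-fold (log2 fold change -0.48, SE 0.09, adjusted p = 0.0039).

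Mmp23, an unusual short MMP held in the membrane by its amino-terminal end, had the largest rise of any MMP tested, 3.03-fold. Controls measured 7.34, 9.16, 6.61 and 9.15 CPM and cKO libraries 23.1, 21.2, 29.0 and 24.3 CPM, far apart relative to the spread within each group (SE of the log2 fold change 0.14, adjusted p = 3.9e-05). Mmp19, a secreted MMP, rose 1.67-fold from 4.49, 2.69, 3.83 and 3.14 CPM to 6.38, 5.85, 4.99 and 6.45 CPM (adjusted p = 0.0162, and 0.0523 without cKO replicate 1). Of its exon bases, 22.3% are shared with Tmem198b on the other strand, and the strand setting of the counting is not given in the sources used here. Tmem198b itself did not pass, at 6.05 CPM in controls and 6.98 in cKO.

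The remaining described MMPs did not pass. The membrane-anchored Mmp16 and Mmp17 were at a log2 fold change of 0.73 and 0.21. All 4 cKO libraries of Mmp16 lay above the controls, at a low level of 1.36 ± 0.309 and 2.26 ± 0.607 CPM (adjusted p = 0.0798). The stromelysin Mmp3, a broad matrix protease, measured 3.55 ± 0.916 and 5.20 ± 0.770 CPM (adjusted p = 0.0819), and passed without control replicate 4 (0.0245) and with total counts as the scaling (0.0358). Mmp11 and Mmp28 had log2 fold changes of -0.17 and 0.46. Mmp13, the main collagenase of rodents, was just inside the minimum level, at 0.981 ± 0.713 and 0.540 ± 0.265 CPM (adjusted p = 0.397).

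**Figure D2:**
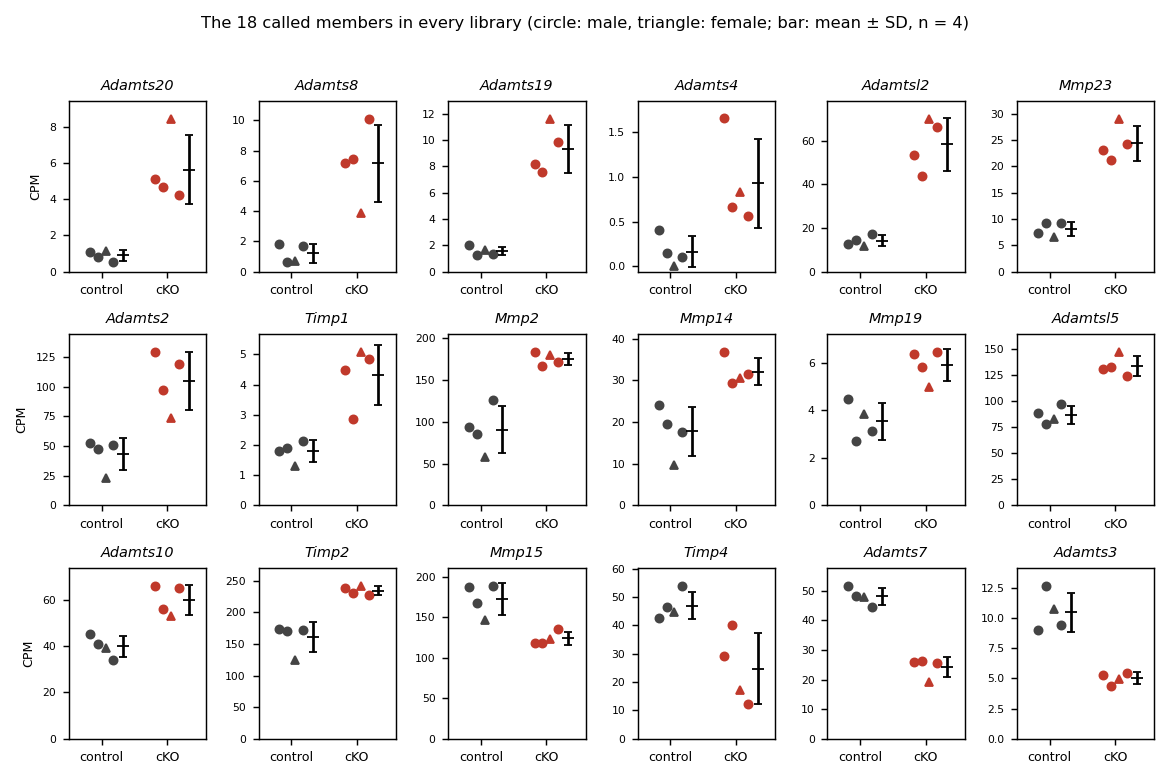
Level in CPM (y axes, from 0 or just below it) of the 18 called members in each of the 8 libraries, controls in grey and cKO in red, with triangles for the female library of each genotype and bars for mean ± SD (n = 4). In all 18 panels the control and cKO points do not overlap, and cKO points of Timp4 spread from 12.2 to 40.1 CPM.

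The TIMPs moved in different directions. Timp1, the most inducible TIMP, rose 2.41-fold from a low level, with 1.81, 1.91, 1.31 and 2.14 CPM in controls and 4.47, 2.86, 5.06 and 4.86 CPM in cKO (adjusted p = 0.00315). Timp2, which both inhibits MMPs and helps Mmp14 to activate the Mmp2 precursor, measured 174.3, 169.7, 125.2 and 172.7 CPM in controls and 239.1, 229.9, 241.7 and 227.3 CPM in cKO. The female control was the low point of Timp2, and cKO libraries lay within a narrow range above all controls. Its rise was 1.46-fold (log2 fold change 0.55, SE 0.10, adjusted p = 0.0033).

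Timp3, the TIMP that binds tightly to the matrix, overlapped between genotypes. Controls measured 346.8, 335.3, 418.2 and 379.2 CPM and cKO libraries 407.9, 397.2, 383.7 and 334.2 CPM (log2 fold change 0.04, SE 0.09, adjusted p = 0.81). Of its exon bases 21.3% are shared with Syn3, inside which it lies on the other strand. Syn3 was at 1.54 CPM in controls and 1.41 in cKO.

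Timp4, the TIMP best known from the heart, was lower in every cKO library, at 29.4, 40.1, 17.3 and 12.2 CPM against 42.7, 46.5, 44.8 and 53.9 CPM in controls. The 4 controls were close together, and the 4 cKO libraries were not, with the highest of them near the lowest control. The fall was 1.90-fold (log2 fold change -0.93, SE 0.28, adjusted p = 0.0383). This call was lost in 10 of 16 alternatives, including DESeq2 (adjusted p = 0.0567), total counts (0.0511), males only (0.101) and the removal of any 1 library other than cKO replicate 2 (0.0532 to 0.0972), while its log2 fold change stayed between -1.26 and -0.70.

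Levels were compared between genes per kilobase of merged exons (RPKM, from GENCODE M21 lengths). Timp3 (45.4 ± 4.57 RPKM) and Timp2 (41.2 ± 6.06) led in controls and did not differ beyond their spread, followed by Mmp15 (32.1 ± 3.61) and Mmp2 (26.9 ± 8.40), which did not either. In cKO ventricles the order was Timp2 (60.2 ± 1.79 RPKM), Mmp2 (52.0 ± 2.25), Timp3 (46.8 ± 4.01), Adamtsl5 (28.3 ± 2.02) and Mmp15 (23.0 ± 1.52), and of these neighbours only the ranges of Mmp2 and Timp3 overlapped. Within the summed TIMP RPKM, the share of Timp2 was 34.7% to 46.3% in controls and 50.1% to 54.6% in cKO. The share of Timp4 was 7.51% to 8.92% in controls and 1.94% to 5.77% in cKO, and that of Timp1 was 1.59% to 2.36% and 2.73% to 5.12%. Summed over the 12 described MMPs the level was 73.2 ± 12.8 RPKM in controls and 100.3 ± 2.96 in cKO. Over the 4 TIMPs it was 96.6 ± 4.22 and 116 ± 6.31. Most of each difference came from 1 gene, Mmp2 (26.9 to 52.0 RPKM) for the MMPs and Timp2 (41.2 to 60.2 RPKM) for the TIMPs. The higher sums therefore do not show a rise across either class. These sums are given without a test.

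**Figure D3:**
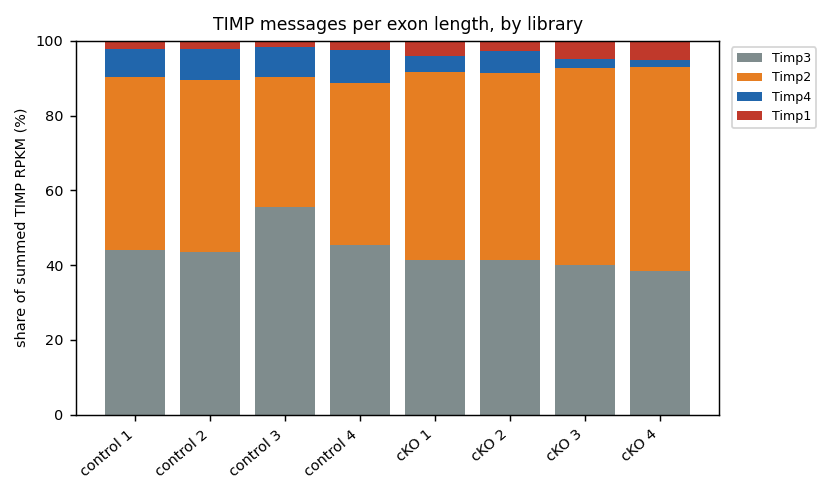
Share of the summed RPKM of the 4 TIMPs (y axis, percent) in each of the 8 libraries (x axis), stacked by gene. Timp3 and Timp2 make up most of each bar, and the Timp4 band is thinner in the 4 cKO bars (1.94% to 5.77%) than in the 4 control bars (7.51% to 8.92%).

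Among ADAMTS enzymes known to cut aggrecan or versican, 3 of 7 rose (beside 9.64% of all genes), all from low control levels. Of these, Adamts4 reached the minimum level in cKO libraries alone, so its place in the count depended on its rise. Adamts8 (chromosome 9, 30942562 to 30963838), which cuts proteoglycans and is known from lung and heart, measured 1.81, 0.637, 0.674 and 1.72 CPM in controls and 7.16, 7.47, 3.88 and 10.1 CPM in cKO, a 5.91-fold rise (adjusted p = 0.000776). Adamts20 (chromosome 15, 94270163 to 94465418), which cuts versican and is known from pigment cell development, measured 1.09, 0.833, 1.14 and 0.523 CPM and then 5.13, 4.66, 8.43 and 4.26 CPM, a 6.19-fold rise (log2 fold change 2.63, SE 0.30, adjusted p = 0.000167). The female cKO library was the lowest of its group for Adamts8 and the highest for Adamts20. Adamts4, an aggrecanase, had 14 counts over the controls and 89 over the cKO libraries, at 0.408, 0.147, 0 and 0.105 CPM and 1.66, 0.659, 0.831 and 0.559 CPM. Its fitted rise of 5.50-fold (adjusted p = 0.0216) was 10.9-fold without control replicate 1 and missed the threshold without control replicate 2 or 4 or cKO replicate 1 (adjusted p = 0.0572, 0.0595 and 0.0768).

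The more abundant members of this class did not pass, which does not show that each differed little. Adamts1, a broad versican and aggrecan protease, measured 73.4 ± 7.81 CPM in controls and 75.1 ± 8.22 in cKO (log2 fold change 0.03, SE 0.10). Adamts5, the main aggrecanase of mouse cartilage, measured 64.8 ± 9.86 and 82.1 ± 9.49 CPM, with an adjusted p of 0.0646 that fell below 0.05 in 6 of 16 alternatives, among them sex as a covariate (0.0109) and DESeq2 (0.0372). Adamts9 and Adamts15 had log2 fold changes of -0.26 and 0.25 and wide spreads, which are taken up with the female libraries below.

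Procollagen N-proteinases, which remove the amino-terminal propeptide of fibrillar procollagens, changed in opposite directions. Adamts2 (chromosome 11, 50602084 to 50807573), the main enzyme for procollagen I, measured 52.1, 47.5, 23.2 and 50.5 CPM in controls and 128.8, 97.4, 73.8 and 119 CPM in cKO. All cKO libraries were higher, and the female library was the lowest of each genotype. The rise was 2.42-fold (log2 fold change 1.27, SE 0.24, adjusted p = 0.00295). Adamts3 (chromosome 5, 89677087 to 89883334), which also activates the lymphatic growth factor VEGF-C, fell 2.08-fold, from 9.02, 12.6, 10.7 and 9.41 CPM to 5.26, 4.40, 4.99 and 5.46 CPM (adjusted p = 0.000585). Adamts14, the third enzyme, measured 2.57 ± 1.40 and 2.38 ± 1.21 CPM and did not pass.

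Adamts7 and Adamts12, a pair of enzymes that cut cartilage oligomeric matrix protein, also differed from each other. Adamts7 (chromosome 9, 90163069 to 90208071) fell 1.98-fold, from 51.6, 48.1, 48.0 and 44.6 CPM to 25.9, 26.4, 19.1 and 25.6 CPM (log2 fold change -0.99, SE 0.11, adjusted p = 0.000124), and every alternative kept that call. Adamts12 measured 12.2, 9.26, 2.95 and 7.21 CPM in controls and 25.2, 17.0, 6.09 and 22.0 CPM in cKO. The female library was by far the lowest in each genotype, and with it the genotypes overlapped (log2 fold change 1.16, SE 0.43, adjusted p = 0.0847). With sex in the model the log2 fold change of Adamts12 was 1.14 with an SE of 0.17 (adjusted p = 0.000639), and among males alone it was 1.16 (adjusted p = 0.00231). It also passed without cKO replicate 3 (0.0151) and with no filter on low counts (0.000189), so that 4 of 16 alternatives called it.

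Of the other ADAMTS genes, Adamts19, a little-studied member linked to heart valve disease, rose 5.90-fold. It lies on chromosome 18 (58836667 to 59054060). Controls measured 1.99, 1.27, 1.64 and 1.36 CPM and cKO libraries 8.20, 7.56, 11.6 and 9.84 CPM, with no overlap and little scatter (log2 fold change 2.56, SE 0.20, adjusted p = 2.66e-05). Adamts10, which associates with fibrillin microfibrils, rose 1.51-fold from 45.3, 41.0, 39.0 and 33.9 CPM to 65.9, 56.0, 52.9 and 64.9 CPM (adjusted p = 0.00236). Adamts6, the close relative of Adamts10, and Adamts17, that of Adamts19, did not pass (log2 fold change 0.36 and -0.52).

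Sister pairs were also described by the log2 ratio of the 2 CPM values in each library, for 5 pairs chosen by known relationship with their values already seen, so no test is given. The ratio of Adamts2 to Adamts3 was higher in cKO by 2.36 (control range 1.11 to 2.53, cKO range 3.89 to 4.61). The ratio of Adamts12 to Adamts7 was higher by 2.14, that of Adamts20 to Adamts9 by 2.88 and that of Adamts19 to Adamts17 by 3.13. In each of these 4 pairs the ratios of the 2 genotypes did not overlap. For Adamts2 and Adamts3 this follows from their own opposite values. The other ratios largely restate the single-gene log2 fold changes of Adamts20 (2.63), Adamts19 (2.56), and Adamts12 and Adamts7 (1.16 and -0.99). The count of pairs is therefore not a further result, and no share over all genes was computed for such ratios. For Adamts10 to Adamts6 the ratio differed by 0.22 with overlapping groups.

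Both ADAMTS-like genes that rose encode proteins known to bind fibrillin-1. Adamtsl2 (chromosome 2, 27079379 to 27108981), whose loss causes geleophysic dysplasia, measured 12.7, 14.6, 11.9 and 17.3 CPM in controls and 53.3, 43.7, 70.0 and 66.1 CPM in cKO. No cKO library came near the controls, and the rise was 4.12-fold (log2 fold change 2.04, SE 0.16, adjusted p = 2.66e-05). Adamtsl5 rose 1.54-fold, from 88.8, 77.9, 82.8 and 97.0 CPM to 130.5, 132.3, 146.8 and 124.2 CPM (adjusted p = 0.000598). Adamtsl4, another fibrillin-binding member, measured 85.4 ± 8.98 and 92.1 ± 9.85 CPM, and Adamtsl3 measured 15.3 ± 3.63 and 16.2 ± 5.78 CPM, both without a call. Adamtsl1 was higher in all 4 cKO libraries, at 5.63 ± 0.451 and 7.35 ± 0.442 CPM, and missed the threshold (adjusted p = 0.0582).

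Of the 14 members under the minimum level, Mmp1a, Mmp1b, Mmp7, Mmp10 and Mmp20 had 0 counts in every library, which allows a level of up to 0.119 to 0.157 CPM in a library (3 counts, counting error only). Adamts13, which cuts von Willebrand factor, had 2 counts in all, Adamts16 had 1, Adamts18 had 2 in controls and 4 in cKO, and the neutrophil collagenase Mmp8 had 3 and 6. Just outside the minimum, the macrophage elastase Mmp12 had 39 counts in controls and 35 in cKO, and Mmp25 had 30 and 29. Mmp27 had 17 and 49 counts, Mmp24 had 6 and 27, and Mmp21 had 6 and 22. All cKO libraries of Mmp27 were above the controls. For Mmp24, 1 control and 2 cKO libraries had the same 4 counts. Mmp24 shares 13.6% of its exon bases with BC029722 on the other strand, which rose from 10.3 to 14.3 CPM, and none of the 14 members was tested.

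Genes that act with the family were read from the same fit, in which 9.64% of all tested genes rose and 9.64% fell. The lists are short, so a count of 1 or 2 genes is not read as a result about a list. Of 8 tested genes for activation of proteases, 1 rose and 2 fell: the convertase gene Pcsk5 rose 1.79-fold, while Furin, the convertase that activates the membrane-type MMPs, fell 1.32-fold and Bsg, an inducer of MMPs, fell 1.37-fold. Pcsk6 had a log2 fold change of 0.23. Of 10 other protease inhibitors 2 rose and 1 fell. Reck, a membrane-anchored inhibitor of MMPs, rose 1.63-fold from 17.2 ± 1.09 to 28.1 ± 2.17 CPM. Serpinf1, a serpin better known as an antiangiogenic factor than as a protease inhibitor, rose 2.30-fold, and Wfikkn2, a protein with inhibitor-like domains that binds myostatin, fell 1.87-fold. All 3 called genes of 5 for procollagen processing rose: Pcolce, Pcolce2 and Bmp1, the procollagen C-proteinase, by 0.68, 0.66 and 0.44 on the log2 scale. The list's Tll2 had a log2 fold change of -0.78.

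Of 16 other matrix-degrading enzymes 5 rose and 1 fell, again beside 9.64% of all genes in each direction. Among them were the collagen-cutting cathepsin gene Ctsk (2.17-fold up), Adam19 (2.04-fold up), Adam9 (1.31-fold up) and the serine protease gene Htra1 (1.42-fold down). Of 22 tested substrate genes 13 rose and 1 fell. Vcan, the versican substrate of several ADAMTS enzymes, rose 2.15-fold from 34.2 ± 7.43 to 73.3 ± 11.7 CPM, Dcn 1.86-fold and Bgn 2.43-fold, and Ltbp1 was the gene that fell (1.68-fold). Of 8 genes for uptake and surface docking 5 rose and 0 fell. Lrp1, the scavenger receptor that clears MMPs, ADAMTS enzymes and TIMPs, rose 1.74-fold, Mrc2, a collagen uptake receptor, 1.90-fold, Itgav 1.48-fold and Cd44, the hyaluronan receptor that docks MMPs, 3.44-fold. Median log2 fold changes were 0.06 for activation, 0.39 for other inhibitors, 0.44 for procollagen processing, 0.31 for other enzymes, 0.92 for substrates and 0.56 for uptake, beside 0.01 over all genes. Col1a1, Col3a1 and Dcn are both substrates and fibroblast markers. Comp, in the substrate list, and Fap, in the list of other enzymes, are also activated fibroblast markers. The lists are therefore not independent of the marker sums above.

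The female library was the lowest of its genotype in both genotypes for 9 of the 37 members, a larger share than the 10.6% of all tested genes. This was seen in the values above, and the sex term of a fit with sex and genotype (2 female and 6 male libraries) was then read. It called 5 members lower in females, all of them ADAMTS proteases, where 0.268% of all tested genes (43, of which 5 lie on the Y chromosome) were called lower, and 1 member higher, where 0.218% were. Adamts14 differed by -2.09 on the log2 scale (SE 0.33, adjusted p = 0.0167), with 0.632 and 0.791 CPM in the female control and cKO library and 2.11 to 3.67 CPM in the males. Adamts12 differed by -1.76 (adjusted p = 0.00413) and Adamts2 by -0.85 (0.0149), with the values given above.

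Adamts15 measured 8.84 and 13.8 CPM in the female control and cKO library and 19.0 to 24.2 CPM in the males, a difference of -0.98 (adjusted p = 0.00519). Adamts9 measured 20.4 and 19.7 CPM in females and 32.8 to 49.5 CPM in males, a difference of -0.95 (adjusted p = 0.0182). Adamtsl3 was the member called higher, with 20.2 and 24.6 CPM in females and 11.4 to 15.1 CPM in males (difference 0.73, adjusted p = 0.0463). Without the female control, Adamts12 alone of the 5 passed (adjusted p = 0.0432, the others up to 0.204), and without the female cKO library Adamts2 and Adamts15 did. All 5 differences kept their sign in both fits, in which 1 female library was assumed to vary like the others. Beside these, the 10 fibroblast markers differed in both directions in the same term, from -1.12 for Col3a1, the one called (adjusted p = 0.0453), to 0.51 for Lum. Col1a1 differed by -0.82, Pdgfra by -0.07, Pi16 by 0.13 and Dcn by 0.28. The 7 activated fibroblast markers ran from -1.13 (Cthrc1) to 0.69 (Comp) without a call, and the 9 smooth muscle and pericyte markers from -0.96 (Cnn1) to 0.04 (Rgs5), with Acta2 the one called (-0.94, adjusted p = 0.02). The 8 macrophage markers were all lower in females, from -0.58 (Cd68) to -0.08 (Lyz2), without a call. The 9 endothelial markers ran from -0.68 (Cldn5) to 0.06 (Flt1) and the 7 ventricular cardiomyocyte markers from -0.32 (Actc1) to 0.11 (Tnnt2), also without a call. The part of cell types in the female differences was not tested. Sex and any other property shared by the 2 replicate 3 libraries cannot be told apart.

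**Figure D4:**
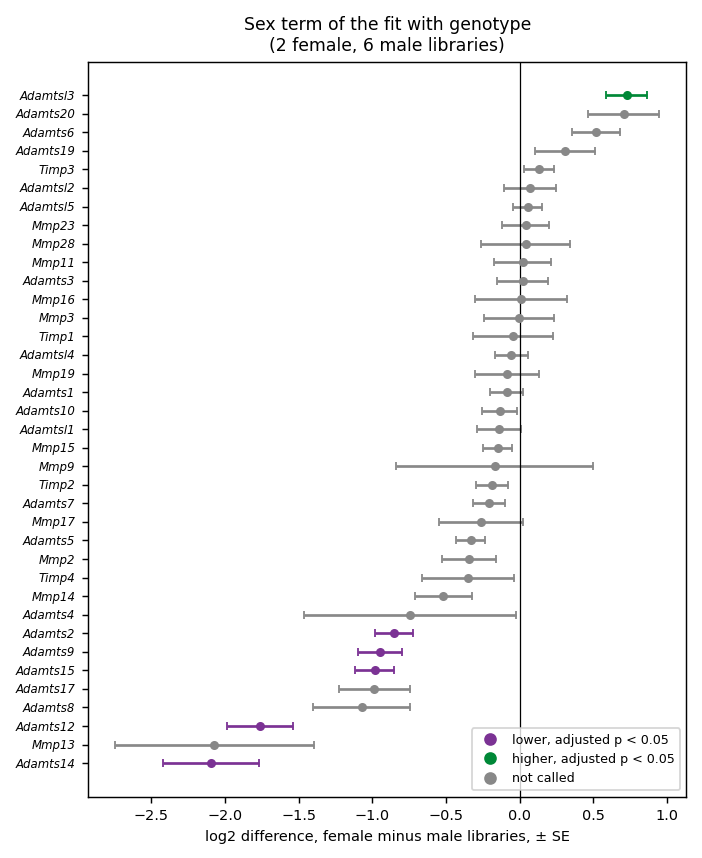
Log2 difference of female minus male libraries (x axis, points) with standard errors (bars) for the 37 members, from the fit with sex and genotype over 2 female and 6 male libraries. Adamts14, Adamts12, Adamts15, Adamts9 and Adamts2 are called lower (differences from -2.09 to -0.85) and Adamtsl3 is called higher (0.73).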

How the data were processed

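Each library has 1 column of raw read counts by gene symbol in the table that the authors deposited. Per the submitters' processing notes, HISAT2 2.0.4, featureCounts 1.6.0, FastQC 0.11.4 and edgeR 3.30.3 were used, with GRCm38 (mm10) as the build. Libraries were stranded mRNA libraries, per the labels' protocols. The strand setting, the annotation release and the treatment of multi-mapping reads in the counting were not given in the sources used here. Rows without a symbol (24, at most 0.132% of a library) were left out. The members, lists and pairs were chosen with earlier results of these data known.

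All genes were fitted with edgeR 4.0.16 (R 4.3.3, limma 3.58.1) by the two-sided quasi-likelihood test, genotype as the only term, TMM scaling, filterByExpr defaults and Benjamini-Hochberg adjustment over 16051 genes. The SE was back-calculated from the F statistic (effect size over root F). The code was tested on simulated counts. Every described member is accounted for, values per library are given for called members, the TIMPs, Mmp2, Mmp9 and Mmp14, and lists give up to 4 genes with the smallest adjusted p. Some results are not reported here. Positions and exon lengths are from GENCODE M21 (98.1% of symbols matched). No label pairs libraries, and same-genotype libraries differed by a chi-square per degree of freedom of 7.09 to 31.2, so none were duplicates. Alternatives were DESeq2 1.42.0 and limma-voom, other scalings and filters, sex as a covariate, males only and each library left out. The sex term was read after the values were seen.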

Additional observations from a re-analysis of the deposited data

Results flagged for a closer look

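In 4 of the 74 groups of 4 values examined (37 members in 2 genotypes), 1 library stood apart from the other 3 by more than Dixon's 95% critical value for the gap over the range, which chance exceeds in about 1 group in 20. All 4 were female libraries (replicate 3) and the lowest of their group. Adamts15 measured 13.8 CPM in cKO replicate 3 against 22.8 to 24.2 CPM in the other cKO libraries, and Adamts7 measured 19.1 CPM there against 25.6 to 26.4 CPM. Adamts2 measured 23.2 CPM in control replicate 3 against 47.5 to 52.1 CPM in the other controls, and Timp2 measured 125.2 CPM there against 169.7 to 174.3 CPM.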

How the results depend on the processing

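Of the 18 called members, 15 kept direction and call in all 16 alternatives of scaling, filter, tool and libraries. The exceptions were Timp4 (lost in 10 of 16), Adamts4 (lost in 3 of the 15 in which it was tested) and Mmp19 (lost in 1), and none of the 18 changed sign. The number of members that rose was 12 to 18 and the number that fell 3 or 4. At an adjusted p under 0.01, 11 rose and 3 fell. Over all genes, 1021 were lower with total counts as the scaling, and 808 were higher and 817 lower at an adjusted p under 0.01. Sign changes occurred in 5 members without a call. When 1 library was left out, log2 fold changes ran from -0.013 to 0.10 for Adamts1, -0.44 to 0.18 for Adamts14, -0.21 to 0.23 for Adamtsl3, -0.23 to 0.74 for Mmp9 and -0.0085 to 0.10 for Timp3, and Adamtsl3 was -0.042 among males alone. The cause of these changes was not tested. Calls gained by members without one in the main analysis are given beside Adamts5, Adamts12 and Mmp3, and Adamtsl1 and Mmp16 passed with total counts alone (adjusted p = 0.0371 and 0.0499). Mmp9, Mmp13 and Adamts4 had at most 96 counts in a genotype, and the SEs of their log2 fold changes were 0.58, 0.63 and 0.66.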
